A study of Mus musculus with 18 samples.

Results

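The genes described here are 10 genes of epithelial cell junctions: the cadherins Cdh1, Cdh2 and Cdh3, the adhesion molecule gene Epcam, the claudins Cldn1, Cldn3, Cldn4 and Cldn7, the occludin gene Ocln, and Esrp1, an epithelial splicing regulator. They were taken by their symbols from 55450 genes counted by RNA sequencing in 18 female C57Bl/6 mice, 1 library per mouse, and all 10 passed the filter on low counts. The 5 B1/P/Rbf tumors (Brca1fl/fl/Trp53fl/fl/TgK18GT121Tg/+) lost Brca1 and Trp53 and carried the T121 transgene, a fragment of SV40 large T antigen that inactivates the Rb family and is driven by the keratin 18 promoter. The 5 P/Rbf tumors (Trp53fl/fl/TgK18GT121Tg/+) kept Brca1, the 5 B1/P tumors (Brca1fl/fl/Trp53fl/fl) had no T121, and the 3 normal samples were whole mammary glands of wild type mice. All 3 tumor groups thus share the loss of Trp53, so no tumor group shows the effect of T121 or of Brca1 loss alone. The tumors were started in young adult females by adenoviral Cre under a CMV promoter injected through the nipple, so the cells that recombined were those the virus reached. The age of the mice at collection was not given in the sources used here.

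Total expected counts ranged from 27661173 to 37794889 per library. The B1/P/Rbf tumor 208863 was described with the study as having lost Brca1 expression only in part. As a check of the labels, Trp53 was lower in each tumor group than in gland (log2 fold changes from -2.51 to -2.06), whereas Brca1 stood at 15.3 ± 8.78 CPM in B1/P tumors, 29.8 ± 8.97 CPM in the B1/P/Rbf tumors and 79.0 ± 32.7 CPM in P/Rbf tumors (SD, n = 5 each). Between the groups with T121, Brca1 overlapped and was not called (log2 fold change -1.41, edgeR adjusted p = 0.0903). Brca1 was also higher in B1/P tumors than in gland, 5.45 ± 0.735 CPM (SD, n = 3), and counts over the whole gene do not show whether the floxed exons are gone, so this gene alone is a weak check. CPM here are counts scaled to a common library size with TMM factors, and each group value below is a mean ± SD over mice. The samples were whole tissue, in which fewer cells of a type and less RNA per cell cannot be told apart.

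Epithelial cells hold to each other through adherens junctions, in which a cadherin spans the membrane and binds catenins inside the cell, and through tight junctions, in which claudins and occludin seal the space between cells. In the mammary gland E-cadherin (Cdh1) is the cadherin of luminal cells and P-cadherin (Cdh3) that of the basal myoepithelial layer, whereas N-cadherin (Cdh2) is typical of mesenchymal and neural cells. EpCAM binds claudin-7 and steadies it at the membrane, and ESRP1 keeps the epithelial splice forms of its target transcripts. Snail, Slug, Twist and Zeb proteins are known to repress several of these genes through E-box sequences, and grainyhead-like and Ovol proteins are known to hold the epithelial state.

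Promoter windows, from 250 bases before to 50 bases after a start site, were at hand for 6 of the 10 genes in the RefSeq table of build GRCm38.p6, with 8 windows in all. They are shown for 4 genes whose levels are compared below: Epcam, the neighbouring genes Cldn4 and Cldn3, and Cldn7, the partner of EpCAM. Capitals mark a motif, either the E-box CAGGTG, read on both strands (so as CACCTG also), or the grainyhead-type core ACCGGT, which reads the same on both strands. The windows lie at chr17:87635729-87636028 (plus strand) for Epcam, chr5:134946885-134947184 (minus strand) for Cldn4, chr5:134985964-134986263 (plus strand) for Cldn3 and chr11:69965171-69965470 (plus strand) for Cldn7, whose window belongs to the downstream one of its start sites in the table. Each is written 5′ to 3′ in the direction of the gene.
Epcam: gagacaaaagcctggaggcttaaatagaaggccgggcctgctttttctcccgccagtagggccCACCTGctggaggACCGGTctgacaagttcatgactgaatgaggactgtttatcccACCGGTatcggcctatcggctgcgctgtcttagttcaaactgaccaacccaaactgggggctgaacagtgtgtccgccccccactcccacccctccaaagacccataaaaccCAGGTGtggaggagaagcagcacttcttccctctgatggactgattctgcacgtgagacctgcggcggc
Cldn4: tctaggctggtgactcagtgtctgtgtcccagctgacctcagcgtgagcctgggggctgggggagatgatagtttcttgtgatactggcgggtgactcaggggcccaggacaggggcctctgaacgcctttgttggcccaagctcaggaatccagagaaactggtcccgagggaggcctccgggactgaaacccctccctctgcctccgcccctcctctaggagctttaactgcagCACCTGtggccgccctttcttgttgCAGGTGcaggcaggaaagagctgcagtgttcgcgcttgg
Cldn3: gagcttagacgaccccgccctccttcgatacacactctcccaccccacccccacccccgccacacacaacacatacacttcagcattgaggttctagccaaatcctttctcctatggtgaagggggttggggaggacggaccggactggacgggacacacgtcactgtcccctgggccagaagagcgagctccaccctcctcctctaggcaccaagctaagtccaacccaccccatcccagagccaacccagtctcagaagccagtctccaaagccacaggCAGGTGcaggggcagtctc
Cldn7: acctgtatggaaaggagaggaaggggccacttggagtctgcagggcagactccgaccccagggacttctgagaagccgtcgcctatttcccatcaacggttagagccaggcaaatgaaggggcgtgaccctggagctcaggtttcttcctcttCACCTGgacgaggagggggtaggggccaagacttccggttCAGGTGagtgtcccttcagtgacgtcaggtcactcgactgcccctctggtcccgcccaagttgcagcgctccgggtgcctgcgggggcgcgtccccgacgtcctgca

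The Epcam window held ACCGGT at both -174 and -131 and the E-box at -187 and -19, counted from the start site to the first base of the motif. Of 32851 promoter windows in the table, 2.33% held ACCGGT at least once and 18 windows (0.0548%) held it more than once, and the other 5 genes' windows held none. The E-box was in 6 of the 8 windows of these genes and in 20.2% of all windows, but the 2 windows of Ocln overlap and share 1 of these sites. The Cldn4 window held it at -14 and 12, the Cldn3 window at 32, just past the start, and the Cldn7 window at -97 and -57. The window of the upstream Cldn7 start site, not shown, held neither motif. The motifs are letters in a window and were not tested as binding sites, and those windows hold the first bases of the transcript as well.

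E-cadherin RNA was 3.18-fold higher in B1/P/Rbf and 2.84-fold higher in P/Rbf tumors than in B1/P tumors, and N-cadherin RNA was 39.4-fold and 20.4-fold lower. P-cadherin RNA ranged from 1.33 to 274 CPM within B1/P tumors, and its lower mean in the T121 tumors missed the threshold. Cdh1 lies on chromosome 8 (bases 106603351 to 106670246, plus strand, GRCm38). It read 1370, 1442, 1214, 906 and 545 CPM in the 5 B1/P/Rbf tumors and 1388, 750, 834, 574 and 1352 CPM in the P/Rbf tumors. The B1/P tumors had 371, 394, 208, 328 and 422 CPM and the glands 157, 187 and 161 CPM. Neither group of T121 tumors overlapped with the B1/P tumors, and every tumor was above every gland. The log2 fold change against B1/P was 1.67 ± 0.30 (SE) in B1/P/Rbf tumors (edgeR adjusted p = 0.00181) and 1.51 ± 0.30 in P/Rbf tumors (edgeR adjusted p = 0.00322).

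**Figure D1:**
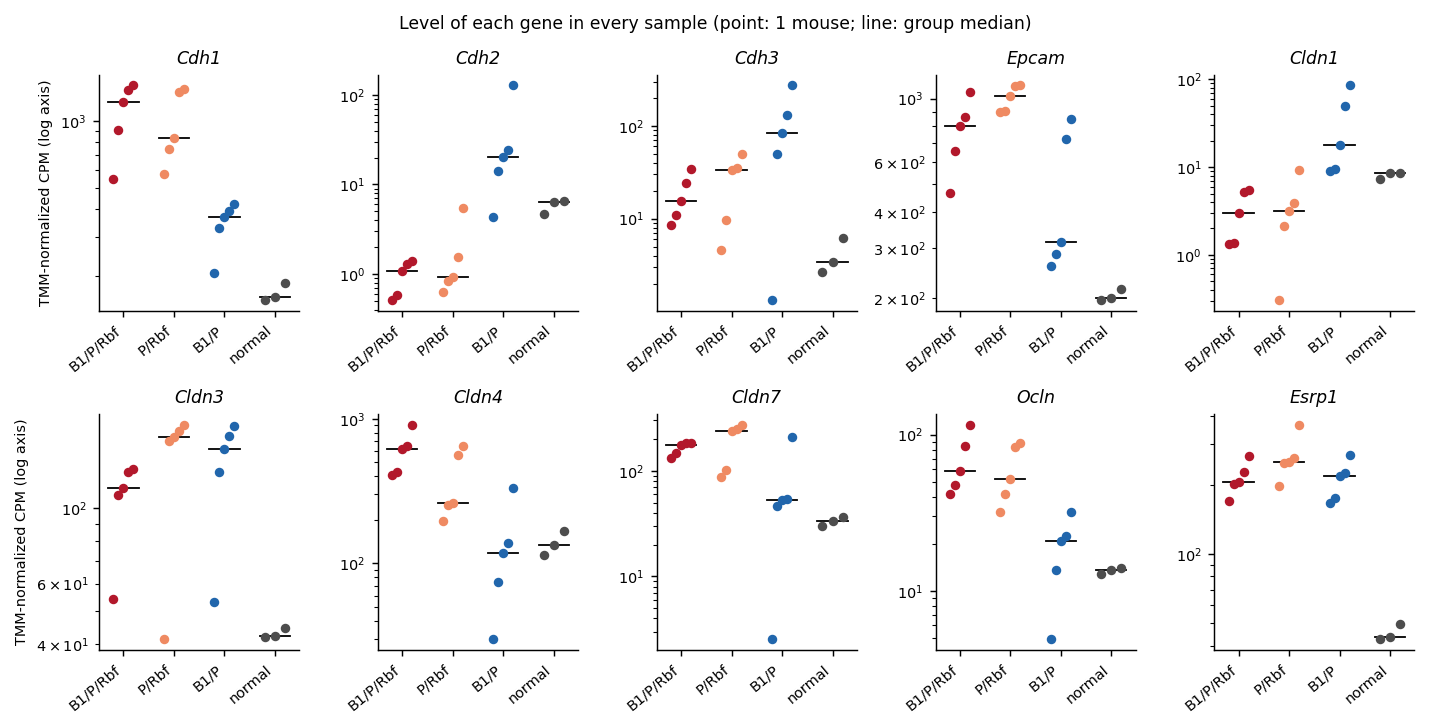
TMM-normalized CPM of each of the 10 genes on a log axis in the 18 mice, by genotype group (1 point per mouse, black line at the group median). All B1/P/Rbf and P/Rbf tumors lie above all B1/P tumors for Cdh1, whereas Esrp1 and Cldn3 overlap between the 3 tumor groups.

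Cdh2, on the minus strand of chromosome 18 (bases 16588877 to 16809246), was scarce in T121 tumors and present in B1/P tumors. The B1/P/Rbf tumors had 1.39, 0.513, 1.296, 1.07 and 0.584 CPM and the P/Rbf tumors 5.46, 1.55, 0.835, 0.632 and 0.919 CPM. The B1/P tumors had 14.2, 24.6, 4.30, 129 and 20.3 CPM, so that 1 tumor (255232) held most of the group's mean, and the glands had 4.69, 6.58 and 6.33 CPM. The B1/P/Rbf tumors were all below the B1/P tumors, whereas the P/Rbf tumor 287842 was above the B1/P tumor 246361. Against B1/P the log2 fold change was -5.30 ± 0.87 in B1/P/Rbf tumors (edgeR adjusted p = 0.0011) and -4.35 ± 0.83 in P/Rbf tumors (edgeR adjusted p = 0.00262), and both calls held in all 16 alternatives in which the gene was tested, with ranges of -5.59 to -3.88 and -5.31 to -3.07. Without B1/P tumor 255232 they were -4.03 and -3.07, and without P/Rbf tumor 287842 the P/Rbf value was -5.24. A gene annotated antisense to Cdh2, Gm15485, overlaps it.

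Genes listed as nerve and Schwann cell markers moved with Cdh2. Their summed level was 226 to 680 CPM in B1/P tumors, 72.4 to 164 CPM in the B1/P/Rbf tumors and 30.5 to 109 CPM in P/Rbf tumors. Of the 6 markers, 3 were called lower and 1 (Mbp) higher in the B1/P/Rbf tumors, each against B1/P tumors, and 4 were called lower in the P/Rbf tumors. Sox10, a transcription factor of neural crest cells that mammary epithelial cells can also express, made up most of the sum, with 439, 164, 428, 612 and 493 CPM in B1/P tumors and at most 2.73 CPM in any T121 tumor. The part of such cells in the Cdh2 result was not tested.

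Cdh3 lies 46.1 kb before Cdh1 on the same strand of chromosome 8, at bases 106510891 to 106557297. It read 34.5, 11.0, 15.4, 24.4 and 8.50 CPM in the B1/P/Rbf tumors and 35.1, 9.65, 49.7, 4.55 and 33.2 CPM in P/Rbf tumors. In B1/P tumors it read 49.5, 1.33, 130, 274 and 84.8 CPM. The tumor 225070 had the lowest Cdh3 of all tumors, while the other 4 B1/P tumors held 4 of the 5 highest values. The log2 fold changes against B1/P were -2.53 ± 0.86 (edgeR adjusted p = 0.0529) and -2.03 ± 0.84 (edgeR adjusted p = 0.0986) in B1/P/Rbf and P/Rbf tumors. Without tumor 225070 they were -2.85 (edgeR adjusted p = 0.00695) and -2.35 (edgeR adjusted p = 0.0169), and DESeq2 called both with all tumors kept. None of the other 14 alternatives called either, and without tumor 255232 they shrank to -1.83 (edgeR adjusted p = 0.151) and -1.33 (edgeR adjusted p = 0.275). Tumor 225070 had 0 CPM of the basal keratin gene Krt5, which read 334 to 854 CPM in the other 4 B1/P tumors. It also had the highest sum of fibroblast markers (12870 CPM).

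Per kilobase of exon, Cdh1 made up 98.2 ± 0.839% (SD, n = 5) of the sum of Cdh1, Cdh2 and Cdh3 in B1/P/Rbf tumors, 97.3 ± 1.95% (n = 5) in P/Rbf tumors and 95.6 ± 1.07% (n = 3) in glands. In B1/P tumors its share was 74.2 ± 19.8% (n = 5), from 47.8% in tumor 255232 to 96.3% in tumor 225070. Cdh3 made up 22.0 ± 17.8% and Cdh2 3.76 ± 3.95% of the sum in B1/P tumors. In the tumors with a low Cdh1 share most of the rest was thus P-cadherin, and N-cadherin reached at most 10.6%.

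**Figure D2:**
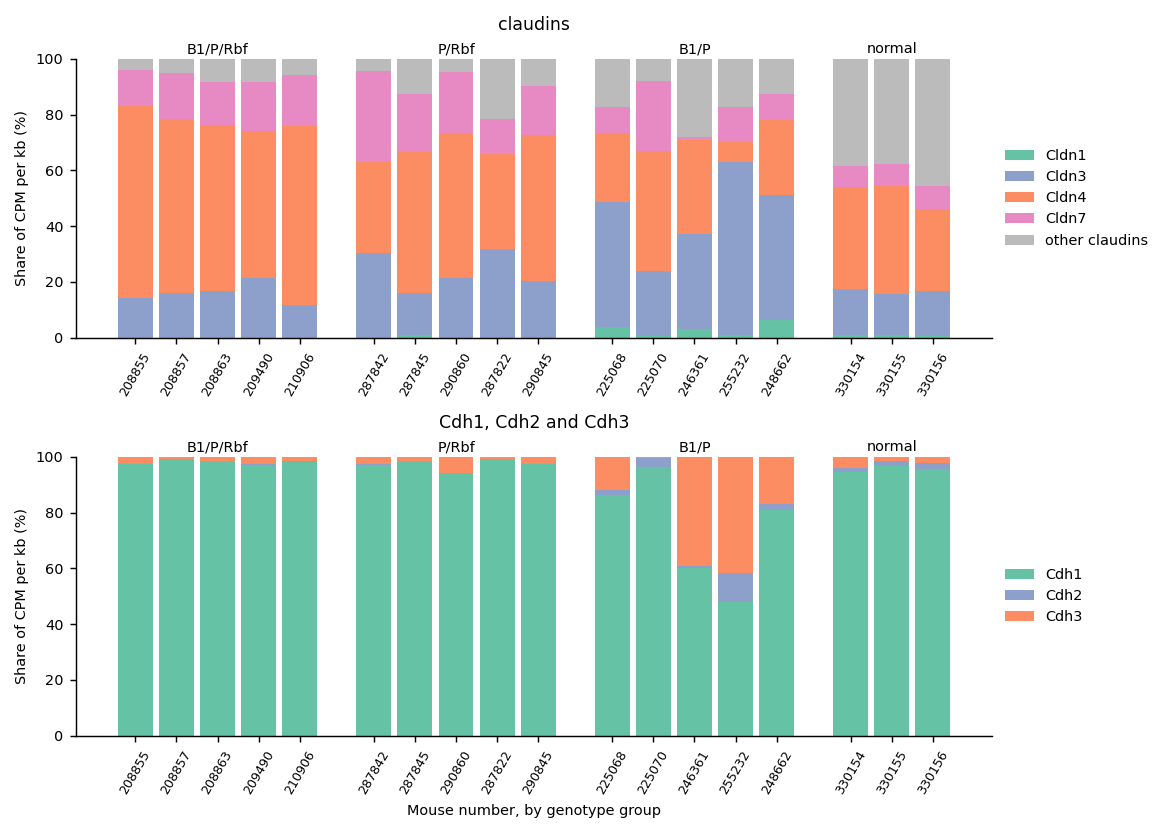
Share of each gene in the summed CPM per kb of all 27 claudin genes in the count file (top) and of Cdh1, Cdh2 and Cdh3 (bottom), 1 bar per mouse, in %. Cldn4 is the largest share in all 5 B1/P/Rbf tumors (52.8% to 68.7%), and the Cdh1 share runs from 47.8% to 96.3% in B1/P tumors and is 94.1% or more in all other samples.

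Epcam, which encodes a cell adhesion glycoprotein of epithelia, had a smaller difference between tumor groups than Cdh1. It lies on the plus strand of chromosome 17 (bases 87635979 to 87651129). The P/Rbf tumors had 1023, 895, 1115, 908 and 1111 CPM and the B1/P/Rbf tumors 655, 467, 1053, 803 and 861 CPM. The B1/P tumors had 846 and 722 CPM in tumors 225068 and 225070 and 260, 313 and 286 CPM in tumors 246361, 255232 and 248662. All P/Rbf tumors were above all B1/P tumors, whereas the B1/P/Rbf tumors overlapped with them. The log2 fold change against B1/P was 1.06 ± 0.31 in P/Rbf tumors (edgeR adjusted p = 0.0266) and 0.66 ± 0.31 in B1/P/Rbf tumors (edgeR adjusted p = 0.156). The first was not called without any 1 of 4 tumors (246361, 255232, 248662 or 290845), with log2 fold changes from 0.90 to 1.02, nor in a fit of those groups alone (1.06, edgeR adjusted p = 0.0888). The second was called only without tumor 225068 (0.96, edgeR adjusted p = 0.0417).

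Esrp1, on the minus strand of chromosome 4 (bases 11331933 to 11386783), did not follow Cdh1. Its level was 215 ± 35.0 CPM (SD, n = 5) in B1/P/Rbf tumors, 211 ± 41.9 CPM (n = 5) in B1/P tumors and 265 ± 61.6 CPM (n = 5) in P/Rbf tumors. The tumors ranged from 167 to 366 CPM and the glands from 42.7 to 49.5 CPM, so no tumor overlapped with a gland. The log2 fold change against B1/P was 0.02 in B1/P/Rbf tumors, with a 95% interval from -0.37 to 0.41, and 0.33 in P/Rbf tumors, with an interval from -0.07 to 0.72. These intervals are the narrowest of the 10 genes in both comparisons, and they leave out a change as large as that of Cdh1. A long noncoding gene, Gm26663, overlaps Esrp1 on the opposite strand.

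Among claudins, Cldn4 was higher and Cldn1 lower in T121 tumors than in B1/P tumors, Cldn7 varied within B1/P tumors, and the 3 tumor groups overlapped in Cldn3. Cldn4, which encodes a claudin of secretory and ductal epithelia, lies on the minus strand of chromosome 5 (bases 134945119 to 134946934). It read 913, 616, 648, 411 and 428 CPM in the B1/P/Rbf tumors, 253, 197, 561, 262 and 651 CPM in P/Rbf tumors, and 118, 333, 74.5, 29.96 and 139 CPM in B1/P tumors. The B1/P/Rbf tumors were all above the B1/P tumors, while 3 of the 5 P/Rbf tumors were below the B1/P tumor 225070. Against B1/P, Cldn4 differed by 2.12 ± 0.50 on the log2 scale in B1/P/Rbf tumors (edgeR adjusted p = 0.00909) and 1.47 ± 0.49 in P/Rbf tumors (edgeR adjusted p = 0.0449). The P/Rbf call was lost in 10 of 17 alternatives, among them leaving out B1/P tumor 225068, 246361, 255232 or 248662 or P/Rbf tumor 290860 or 290845 (log2 fold changes from 1.20 to 1.47). Without B1/P tumor 225070 the differences rose to 2.74 (edgeR adjusted p = 0.0012) and 2.09 (edgeR adjusted p = 0.0049).

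Cldn3 lies 39.3 kb from Cldn4 on chromosome 5 (bases 134986214 to 134987472, plus strand), and the genes point away from each other with no protein-coding gene between them. It read 130, 109, 127, 115 and 53.9 CPM in the B1/P/Rbf tumors, 162, 41.3, 158, 168 and 176 CPM in P/Rbf tumors, and 149, 127, 52.9, 174 and 163 CPM in B1/P tumors. The groups overlapped throughout, and each held 1 low tumor. The log2 fold changes against B1/P were -0.32, with a 95% interval from -1.07 to 0.44, in B1/P/Rbf tumors and 0.08, with an interval from -0.67 to 0.83, in P/Rbf tumors. The noncoding gene Wbscr25 lies antisense to Cldn3.

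The ratio of Cldn4 to Cldn3 CPM is given as a description, with no test, since the pair was chosen after the values of both genes were seen. It was 7.02, 5.65, 5.09, 3.59 and 7.93 in B1/P/Rbf tumors and 1.56, 4.79, 3.56, 1.56 and 3.71 in P/Rbf tumors. In B1/P tumors it was 0.796, 2.61, 1.41, 0.172 and 0.852, and in glands 3.22, 3.77 and 2.69. The mean log2 ratio was 2.50 ± 0.44 in B1/P/Rbf, 1.45 ± 0.76 in P/Rbf and -0.24 ± 1.46 in B1/P tumors (SD, n = 5 each). For the neighbours Cdh1 and Cdh3 the ratio ran from 1.20 to 296 within the B1/P group and from 16.8 to 131 in T121 tumors.

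**Figure D3:**
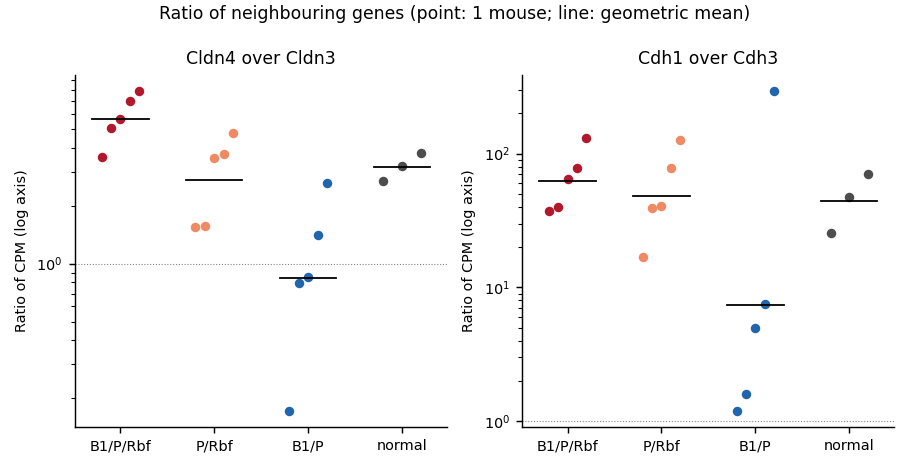
Ratio of CPM of the neighbouring genes Cldn4 and Cldn3 (left) and Cdh1 and Cdh3 (right) on a log axis, by genotype group (1 point per mouse, black line at the geometric mean, dotted line at equal CPM). The Cldn4 over Cldn3 ratio is 3.59 or more in every B1/P/Rbf tumor and 2.61 or less in every B1/P tumor.

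Cldn1, a claudin of the epidermal barrier, lies on the minus strand of chromosome 16 (bases 26356642 to 26371841). It read 50.3, 8.94, 18.0, 9.61 and 85.8 CPM in B1/P tumors. In B1/P/Rbf tumors it read 5.45, 1.35, 1.32, 5.17 and 3.02 CPM, and in P/Rbf tumors 3.88, 9.18, 3.16, 2.16 and 0.306 CPM. The B1/P/Rbf tumors were all below the B1/P tumors, and the P/Rbf tumor 287845 was just above the lowest of them. The log2 fold change was -3.40 ± 0.79 in B1/P/Rbf tumors (edgeR adjusted p = 0.00783) and -3.21 ± 0.78 in P/Rbf tumors (edgeR adjusted p = 0.00983), and both were called in all 16 alternatives in which the gene was tested, with ranges of -3.67 to -2.74 and -3.85 to -2.54. They were smallest without B1/P tumor 248662 (-2.74 and -2.54), and the P/Rbf value was largest without P/Rbf tumor 287845 (-3.85). Its level in gland was 8.16 ± 0.674 CPM (SD, n = 3), between those of T121 and B1/P tumors.

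Markers of the basal layer had lower means in T121 tumors, as had Cldn1 and Cdh3, but as a list they missed the threshold after adjustment. Their mean log2 CPM in the B1/P/Rbf tumors was 2.67 below that of the B1/P tumors (exact two-sided permutation test, p = 0.0397, 0.153 after adjustment over 27 list tests) and 2.58 lower in P/Rbf tumors (exact permutation test, p = 0.0317, adjusted 0.143). Of the 7 markers, 2 (Oxtr and Trp63) were called lower in each comparison. Their summed level was 362 to 2189 CPM in B1/P tumors, 53.0 to 337 CPM in the B1/P/Rbf tumors and 75.9 to 1453 CPM in P/Rbf tumors, with the highest P/Rbf value in tumor 290860, which also had the highest Cdh3 of its group and 3.16 CPM of Cldn1. The part of basal cells in the Cldn1 and Cdh3 results was not tested.

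Cldn7, the claudin that EpCAM binds, lies on the plus strand of chromosome 11 (bases 69964779 to 69967885). It read 184, 175, 183, 146 and 131 CPM in the B1/P/Rbf tumors and 274, 87.2, 249, 103 and 238 CPM in P/Rbf tumors. The B1/P tumors had 46.5, 211, 2.54, 54.0 and 53.2 CPM, so 1 tumor (225070) was as high as T121 tumors and another (246361) was far below the glands, which had 29.7, 36.3 and 33.4 CPM. The log2 fold changes against B1/P were 1.16 ± 0.64 (edgeR adjusted p = 0.226) and 1.37 ± 0.64 (edgeR adjusted p = 0.137) in B1/P/Rbf and P/Rbf tumors. Without tumor 225070 they were 2.07 (edgeR adjusted p = 0.0224) and 2.28 (edgeR adjusted p = 0.0134), which was the only one of 17 alternatives to call either. Without tumor 246361 they were 0.84 (edgeR adjusted p = 0.211) and 1.06 (edgeR adjusted p = 0.11), the lowest of the 17. In tumor 246361 other genes of the region gave mixed values: Slc2a4 read 9.95 CPM there and 1.92 to 13.0 CPM in the other B1/P tumors, Elp5 19.2 CPM against 21.7 to 39.3 CPM, and Tmem102, which lies 159 kb away, 0.126 CPM against 3.40 to 11.5 CPM.

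Per kilobase of exon, Cldn4 made up 61.4 ± 5.90% of all claudin signal in B1/P/Rbf tumors, 44.3 ± 10.1% in P/Rbf tumors, 27.0 ± 13.0% in B1/P tumors (SD, n = 5 each) and 35.0 ± 4.84% in glands (n = 3). Cldn3 was the larger share in B1/P tumors, with 42.0 ± 14.3% against 15.9 ± 3.56% in B1/P/Rbf tumors. Cldn7 made up 16.2 ± 2.08%, 21.1 ± 7.47% and 11.5 ± 8.77% in B1/P/Rbf, P/Rbf and B1/P tumors. Cldn1 reached 6.18% at most in any sample, so its large fold change concerns a minor claudin. The other 23 claudins together made up 40.6 ± 4.37% in glands and 6.36 ± 1.87% in B1/P/Rbf tumors.

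Ocln, which encodes the tight junction protein occludin, lies on the minus strand of chromosome 13 (bases 100496507 to 100552718). It read 41.4, 58.1, 116, 47.5 and 84.1 CPM in the B1/P/Rbf tumors and 88.7, 31.7, 41.7, 51.7 and 83.1 CPM in P/Rbf tumors. In B1/P tumors it read 20.7, 22.5, 4.90, 13.6 and 31.7 CPM, and in glands 14.0, 12.8 and 13.5 CPM. The B1/P/Rbf tumors were all above the B1/P tumors, and P/Rbf tumor 287845 was level with the highest of them. Against B1/P tumors, the log2 fold change was 1.89 ± 0.42 in B1/P/Rbf tumors (edgeR adjusted p = 0.00633) and 1.67 ± 0.42 in P/Rbf tumors (edgeR adjusted p = 0.0115).

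Across the 10 genes, 5 were called in B1/P/Rbf against B1/P tumors, where 16.7% of the 19186 genes tested were called: Cdh1, Cldn4 and Ocln rose (7.36% of all genes did) and Cdh2 and Cldn1 fell (9.29% did). In P/Rbf against B1/P tumors 6 of the 10 were called, beside 19.2% of all genes: Cdh1, Epcam, Cldn4 and Ocln rose (8.43% of all genes) and Cdh2 and Cldn1 fell (10.8%). The median log2 fold change of the 10 genes was 0.34 and 0.69 in these comparisons, against -0.06 and -0.05 for all genes tested. Both comparisons share the same B1/P tumors, so they are not independent of each other. The mice were also cut into 2 sets by their numbers in the labels (up to 246361, and from 248662 on). The cut was chosen here and runs through the B1/P group, with wider gaps in the numbers elsewhere. No label calls the sets a batch. A term for these sets left 4 called in each comparison. Cldn4 was lost in both (1.78, edgeR adjusted p = 0.0535, and 2.19, edgeR adjusted p = 0.0567), and Ocln in P/Rbf tumors (1.39, edgeR adjusted p = 0.142). Without the term these log2 fold changes were 2.12, 1.47 and 1.67, so the calls were lost while the differences stayed of similar size or larger.

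**Figure D4:**
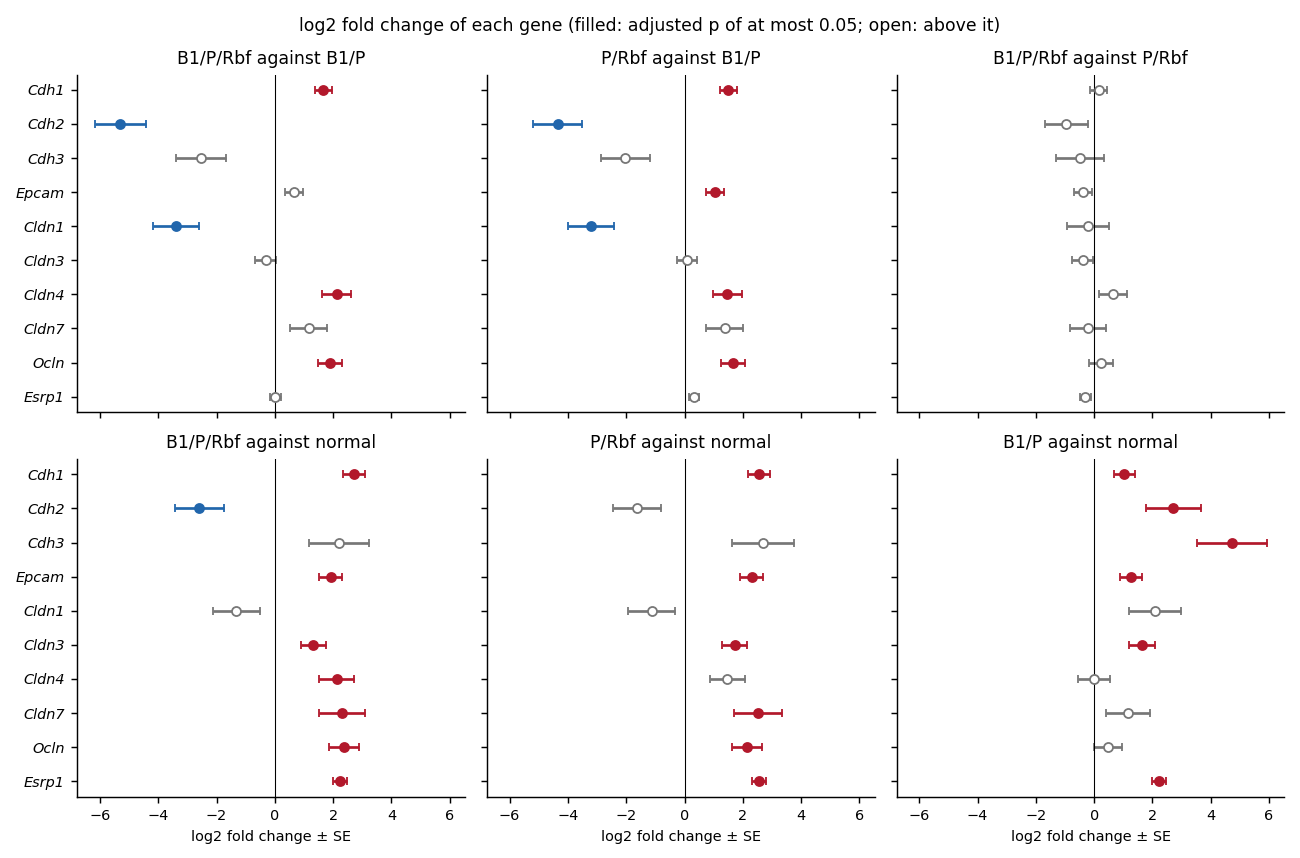
Log2 fold change (point) and its standard error (bar) of the 10 genes in 6 comparisons, from 1 edgeR fit of all 18 samples; filled points have an adjusted p of at most 0.05, red higher and blue lower in the first group. Cdh1, Cldn4 and Ocln are filled red and Cdh2 and Cldn1 filled blue in both comparisons with B1/P tumors, and no point is filled in the comparison of the groups with T121.

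Between the tumors with T121, which differ in Brca1, none of the 10 genes was called by edgeR (54 of 19186 genes, 0.281%, were), nor by DESeq2, limma-voom or any other alternative, and none had an unadjusted p under 0.05. Cdh1 differed by 0.16 on the log2 scale (95% interval from -0.45 to 0.78) and Ocln by 0.22 (-0.63 to 1.08). With 5 tumors a group the intervals of Cdh2 (-2.53 to 0.62), Cdh3 (-2.22 to 1.22) and Cldn1 (-1.72 to 1.32) were wide. Differences within them thus remain compatible with the data for these 3 genes. Cldn4 was 0.65 higher in B1/P/Rbf tumors (-0.37 to 1.67) and Epcam 0.40 lower (-1.05 to 0.26). By the chosen cut in mouse numbers these groups fall into different sets, so Brca1 status and set cannot be told apart except through the B1/P tumors.

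The level of other epithelial genes moved with the groups. The mean log2 CPM of 6 other epithelial genes (Krt8, Krt18, Spint1, Spint2, St14 and Rab25) was 8.15 in B1/P/Rbf tumors, 8.57 in P/Rbf tumors, 6.92 in B1/P tumors and 6.84 in glands, and every T121 tumor was above every B1/P tumor (exact two-sided permutation test against B1/P, p = 0.00794 for each, the smallest possible). T121 is driven by the Krt18 promoter, and Krt18 is in this list, so the list may not be independent of the transgene. That dependence was not tested. The 6 genes also moved unevenly, with Krt8 and Krt18 2.73 and 2.74 higher on the log2 scale in P/Rbf than in B1/P tumors but Rab25, Spint1 and Spint2 0.57, 0.85 and 0.97 higher, and Krt8, Spint1 and Rab25 were not called in B1/P/Rbf tumors (edgeR adjusted p = 0.236, edgeR adjusted p = 0.363 and edgeR adjusted p = 0.0687). Relative to it, Cdh1 differed from B1/P tumors by 0.39 (exact permutation test, p = 0.135) and -0.19 (p = 0.5) on the log2 scale in B1/P/Rbf and P/Rbf tumors. Ocln differed by 0.79 (exact permutation test, p = 0.0556) and 0.14 (p = 0.643), and Cldn4 by 1.24 (exact permutation test, p = 0.0317) and 0.07 (p = 0.929). On this scale Cldn3 and Esrp1 were lower in both groups of T121 tumors, by -1.50 and -1.63 for Cldn3 and -1.21 and -1.33 for Esrp1, with p = 0.00794 in each exact permutation test. Without Krt8 and Krt18 in the list, a setting chosen after seeing the data, these were -1.18 and -0.91 for Cldn3 (exact permutation test, p = 0.0397 and p = 0.0794) and -0.88 and -0.62 for Esrp1 (exact permutation test, p = 0.0238 and p = 0.0159), and Cdh1 differed by 0.72 and 0.53 (exact permutation test, p = 0.0397 and p = 0.0635). With that shorter list Ocln differed by 1.115 (exact permutation test, p = 0.0635) and 0.856 (p = 0.103). Cldn4 in P/Rbf tumors differed by 0.784 (exact permutation test, p = 0.286). Cdh2 and Cldn1 were lower on either scale, with -5.68 and -5.56 for Cdh2 and -4.29 and -4.88 for Cldn1 (p = 0.00794 in each exact permutation test). Subtracting a list that is higher in T121 tumors lowers every gene, and the median of all 19148 genes on this scale was -1.25 and -1.71 in B1/P/Rbf and P/Rbf tumors, so the values of Cldn3 and Esrp1 were not far from those of other genes. By the same unadjusted test 1 of the 10 genes was higher and 4 were lower in B1/P/Rbf tumors, where 1.85% of all genes were higher and 59.9% lower. In P/Rbf tumors 0 were higher and 4 lower, against 0.439% and 74.1% of all genes, so no excess of lower genes is read from these counts. Which of these scales is nearer to the level per epithelial cell was not tested.

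**Figure D5:**
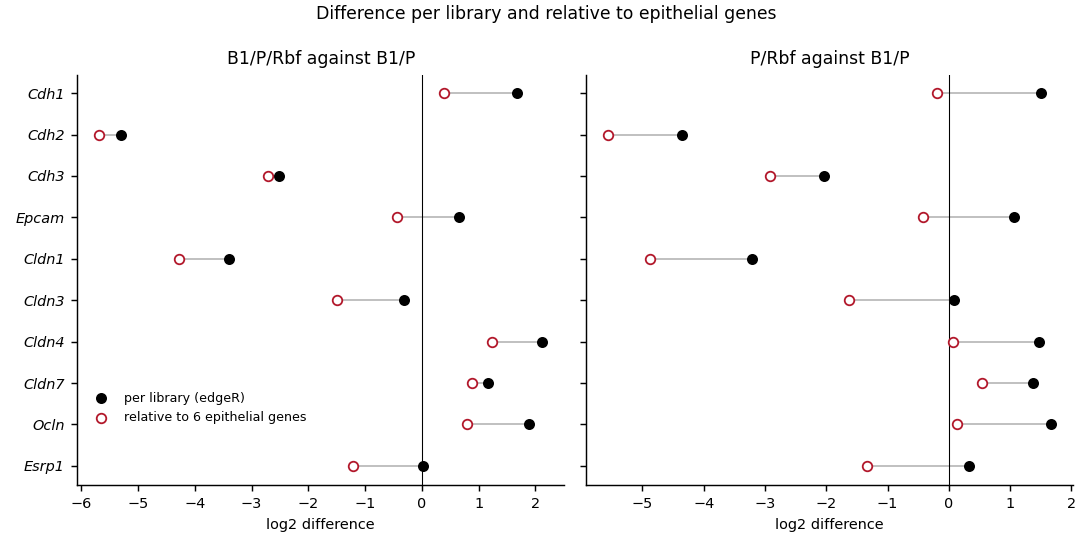
Log2 difference of each gene from B1/P tumors in B1/P/Rbf (left) and P/Rbf tumors (right), per library from the edgeR fit (black) and relative to the mean log2 CPM of 6 epithelial genes (open red). The Cdh1 difference moves from 1.67 to 0.39 and from 1.51 to -0.19, whereas those of Cdh2 and Cldn1 lie between -5.68 and -3.21 on both scales.

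Against normal gland most of the 10 genes were higher in tumors. In B1/P/Rbf tumors 8 were called, 7 higher and Cdh2 lower, where 37.0% of all genes passed (17.1% higher and 20.0% lower). In B1/P tumors 6 were called, all higher (Cdh1, Cdh2, Cdh3, Epcam, Cldn3 and Esrp1), against 33.8% of all genes (16.8% higher and 16.9% lower). In P/Rbf tumors 6 were called, all higher (Cdh1, Epcam, Cldn3, Cldn7, Ocln and Esrp1), against 37.7% (17.4% higher and 20.3% lower). Cdh1, Epcam, Cldn3 and Esrp1 were thus called higher in all 3 tumor groups, although not in every alternative. Cdh1 in B1/P tumors was not called without any 1 gland (edgeR adjusted p from 0.0587 to 0.0988) or without tumor 248662 (edgeR adjusted p = 0.0563). Its call was also lost with the term for mouse sets (edgeR adjusted p = 0.0537) and under the study's filter, a log2 CPM of 6 or more in 6 or more samples (edgeR adjusted p = 0.0738). Without tumor 225070 it was lost at the threshold itself (edgeR adjusted p = 0.05). Cldn3 in the B1/P/Rbf tumors was called in 11 of 15 alternatives, and not without any 1 of the 3 glands (edgeR adjusted p from 0.0575 to 0.0737) or under the study's filter (edgeR adjusted p = 0.0592). Epcam in B1/P tumors was also called in 11 of 15, and not without gland 330154 (edgeR adjusted p = 0.0622) or gland 330156 (edgeR adjusted p = 0.0685), with only the 2 groups fitted (edgeR adjusted p = 0.0575) or with the term for mouse sets (edgeR adjusted p = 0.298). Cldn7 was called in 11 of 15 in both T121 groups, and not without any 1 gland (edgeR adjusted p from 0.0559 to 0.0753 in P/Rbf and from 0.0765 to 0.101 in the B1/P/Rbf tumors), nor by limma-voom in P/Rbf (limma adjusted p = 0.0514) or with the set term in B1/P/Rbf (edgeR adjusted p = 0.357). Esrp1 had the narrowest intervals, with log2 fold changes of 2.55 ± 0.24, 2.24 ± 0.24 and 2.22 ± 0.24 in P/Rbf, B1/P/Rbf and B1/P tumors (edgeR adjusted p = 6.5e-07, 2.09e-06 and 3.48e-06). Cdh3 was 4.73 ± 1.20 higher on the log2 scale in B1/P tumors (edgeR adjusted p = 0.00592), but was not called by limma-voom (4.21, limma adjusted p = 0.101) or relative to the 6 other epithelial genes (3.48, p = 0.143, two-sided exact permutation test), and B1/P tumor 225070, at 1.33 CPM, was below all 3 glands (2.65 to 6.18 CPM). Cldn4 in B1/P tumors was level with gland (0.00, 95% interval from -1.169 to 1.176).

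The glands held much tissue other than epithelium, and without TMM scaling the median log2 fold change of all genes against gland would be 0.33, 0.42 and 0.47 in P/Rbf, B1/P/Rbf and B1/P tumors in place of 0.05, 0.05 and 0.12. Adipocyte markers summed to 20386 to 26117 CPM in glands and to at most 236.8 CPM in any tumor, and skeletal muscle markers to 21778 to 42844 CPM in glands against at most 581 CPM in tumors. All 8 adipocyte, all 5 muscle and all 7 lymphocyte markers were called lower in each tumor group. Relative to the 6 epithelial genes, the B1/P/Rbf tumors had 5 of the 10 genes higher and 2 lower, with 4 higher and 0 lower in B1/P tumors and 2 higher and 2 lower in P/Rbf tumors (exact permutation tests, not adjusted, each p = 0.0357, the smallest that 5 against 3 can give). Of all genes, 4.26% were higher and 62.7% lower by this test in B1/P/Rbf tumors, 12.9% and 19.2% in B1/P tumors, and 2.15% and 69.9% in P/Rbf tumors. Cldn3 in T121 tumors did not hold on this scale (-0.06 and -0.19, exact permutation test p = 0.964 in both), and Esrp1 did in all 3 groups (0.91, 2.12 and 0.79). Leaving out gland 330156 left 4 genes called in B1/P/Rbf and 3 in B1/P tumors, leaving out gland 330155 left 5 in B1/P/Rbf tumors, leaving out gland 330154 left 3 in B1/P tumors. The term for the sets of mice left 4 in B1/P/Rbf tumors, where Cdh2 (-0.22, edgeR adjusted p = 0.924), Epcam (0.89, edgeR adjusted p = 0.217), Cldn4 (1.07, edgeR adjusted p = 0.406) and Cldn7 (1.61, edgeR adjusted p = 0.357) were lost. It also lost Epcam (0.56, edgeR adjusted p = 0.298) and Cdh1 (1.16, edgeR adjusted p = 0.0537) in B1/P tumors. Cdh2 in B1/P/Rbf tumors was called in 10 of 14 alternatives, and was not called by limma-voom (-2.10, limma adjusted p = 0.196), without gland 330155 (edgeR adjusted p = 0.0633) or without gland 330156 (edgeR adjusted p = 0.0564). Cldn4 in these tumors was also lost without gland 330156 (2.01, edgeR adjusted p = 0.0566).

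Among the other genes of these families, listed by family and not by their change, calls against B1/P tumors are counted here beside the 16.7% (B1/P/Rbf) and 19.2% (P/Rbf) of all genes called. Of 25 other claudins 23 were in the count file and 12 were tested, and 1 rose and 0 fell in B1/P/Rbf against B1/P tumors (median log2 fold change -1.31), while 1 rose and 2 fell in P/Rbf tumors (median -1.33). The one that rose in both was Cldn10, a claudin that forms ion pores, with log2 fold changes of 2.95 ± 0.94 (edgeR adjusted p = 0.0403) and 3.91 ± 0.98 (edgeR adjusted p = 0.0117), although P/Rbf tumor 287842 had 0.777 CPM beside 26.8 to 152 CPM in the other 4. Cldn15, another pore-forming claudin, fell in P/Rbf tumors (-1.74 ± 0.58, edgeR adjusted p = 0.0441). Of 20 other cadherins 12 were tested: 1 rose and 2 fell in B1/P/Rbf tumors, and 1 rose and 3 fell in P/Rbf tumors. Cdh19, a cadherin of Schwann and neural crest cells, fell in both (-5.74 ± 1.32, edgeR adjusted p = 0.00757, and -6.95 ± 1.43, edgeR adjusted p = 0.00389), from 4.16 ± 4.29 CPM in B1/P tumors. Cdh24 rose in both, by 1.07 ± 0.34 (edgeR adjusted p = 0.0406) and 1.35 ± 0.34 (edgeR adjusted p = 0.0127).

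The share of called genes among partners in the adherens junction, such as catenins and nectins, was near that of all genes (16.7% and 19.2%). Of 15 adherens junction partners, 1 rose and 1 fell in B1/P/Rbf against B1/P tumors and 0 rose and 2 fell in P/Rbf tumors, with medians of 0.15 and 0.41. Ctnnb1, which encodes beta-catenin, rose by 0.70 ± 0.22 (edgeR adjusted p = 0.0376) in B1/P/Rbf tumors. Ctnnd2, which encodes the delta-catenin of neural cells, fell by 6.09 ± 0.82 (edgeR adjusted p = 0.000361) and by 5.91 ± 0.82 (edgeR adjusted p = 0.000376) on the log2 scale, from 18.0 ± 12.3 CPM in B1/P tumors to 0.262 ± 0.180 and 0.295 ± 0.246 CPM (SD, n = 5 each). It moved with Cdh2, Cdh19 and Sox10.

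Partners of claudins and occludin had calls in both directions, where 16.7% and 19.2% of all genes were called. Of 20 tight junction partners, 5 rose and 3 fell in B1/P/Rbf tumors and 6 rose and 2 fell in P/Rbf tumors, with medians of 0.17 and 0.47. Tjp3, a scaffold protein gene, rose by 2.33 ± 0.37 (edgeR adjusted p = 0.000961) and 2.48 ± 0.38 (edgeR adjusted p = 0.000717), from 19.5 ± 8.38 CPM in B1/P tumors to 97.9 ± 34.3 and 108 ± 55.2 CPM (SD, n = 5 each). Ildr2, of the angulin family at tricellular contacts, fell by 4.09 ± 0.80 (edgeR adjusted p = 0.00279) and by 2.75 ± 0.75 (edgeR adjusted p = 0.0174). Of 16 desmosome genes 15 were tested: 2 rose and 1 fell in B1/P/Rbf tumors, and 1 rose and 0 fell in P/Rbf tumors. The desmosomal cadherin gene Dsc2 rose in both (1.67 ± 0.49, edgeR adjusted p = 0.0284, and 1.44 ± 0.49, edgeR adjusted p = 0.0485), and Perp, a desmosome gene of stratified epithelia that p63 drives, fell in B1/P/Rbf tumors (-2.23 ± 0.71, edgeR adjusted p = 0.0388). Of 10 partners of EpCAM and ESRP1, 3 rose in B1/P/Rbf and 4 in P/Rbf tumors and 0 fell. St14, which encodes the protease matriptase, had the largest of these rises (1.48 ± 0.26, edgeR adjusted p = 0.00159, and 1.41 ± 0.26, edgeR adjusted p = 0.0021).

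Among 14 known regulators of epithelial state, the repressor genes Snai2 and Twist1 fell in both groups of T121 tumors. In all, 1 rose and 2 fell in B1/P/Rbf tumors, and 1 rose and 3 fell in P/Rbf tumors, beside 16.7% and 19.2% of all genes. Snai2, which encodes the repressor Slug of basal cells, read 47.7, 4.41, 47.4, 28.9 and 98.0 CPM in B1/P tumors and 2.08 to 16.2 CPM in T121 tumors. It fell by 3.16 ± 0.65 (edgeR adjusted p = 0.00371) and by 2.89 ± 0.64 (edgeR adjusted p = 0.00574) on the log2 scale, although tumor 225070, which had 0 CPM of Krt5 and 1.33 CPM of Cdh3, was as low as the T121 tumors. Twist1 fell by 2.55 ± 0.62 (edgeR adjusted p = 0.0106) and by 2.39 ± 0.62 (edgeR adjusted p = 0.0135). Zeb2 had log2 fold changes of -0.91 ± 0.32 (edgeR adjusted p = 0.0563) and -1.43 ± 0.32 (edgeR adjusted p = 0.00625), and Zeb1 of -0.55 ± 0.34 (edgeR adjusted p = 0.284) and -0.79 ± 0.34 (edgeR adjusted p = 0.106).

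Snai1 was not called in either comparison (-1.07 ± 0.69 and 1.07 ± 0.69, edgeR adjusted p = 0.308 and 0.283). Its highest value was 58.8 CPM in P/Rbf tumor 287845, the tumor with the lowest Cldn3 of all 15. The next highest were 17.4 CPM in B1/P tumor 225070 and 14.5 CPM in P/Rbf tumor 287842. Those tumors had 127 and 162 CPM of Cldn3. Twist2 read at most 1.95 CPM in any tumor (-1.66 ± 0.64 and -0.43 ± 0.62, edgeR adjusted p = 0.083 and 0.659). Of the genes that hold the epithelial state, Grhl2 read 119 ± 20.2, 134 ± 13.7 and 112 ± 16.5 CPM in B1/P/Rbf, P/Rbf and B1/P tumors (SD, n = 5 each). Its log2 fold changes of 0.09 (95% interval from -0.23 to 0.41) and 0.27 (-0.06 to 0.59) were small, as were those of Esrp1. Ovol2 had log2 fold changes of -1.03 ± 0.37 (edgeR adjusted p = 0.0638) and -0.68 ± 0.37 (edgeR adjusted p = 0.196). Elf3, an epithelial ETS factor gene, rose by 1.86 ± 0.38 (edgeR adjusted p = 0.00374) and by 1.83 ± 0.38 (edgeR adjusted p = 0.00412).

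Some other markers moved too, where 16.7% (B1/P/Rbf) and 19.2% (P/Rbf) of all genes were called against B1/P tumors. Luminal markers were 3.27 and 3.53 higher in mean log2 CPM in B1/P/Rbf and P/Rbf than in B1/P tumors (exact permutation test, p = 0.00794 for each, adjusted 0.0429). Of the 5, Krt18 and Prom1 were called higher in B1/P/Rbf tumors, and 4 of the 5 in P/Rbf tumors. Fibroblast markers were 1.22 lower (exact permutation test, p = 0.0556, adjusted 0.167) and 1.24 lower (exact permutation test, p = 0.00794, adjusted 0.0429), with sums of 2589 to 12870 CPM in B1/P, 847 to 4800 CPM in B1/P/Rbf and 1285 to 4051 CPM in P/Rbf tumors. The nerve and Schwann cell list, in which Sox10 weighs most, was 2.44 and 3.14 lower (exact permutation test, p = 0.00794 for each, adjusted 0.0429). Endothelial and lymphocyte markers had 0 calls in either comparison. Of the 5 macrophage markers 1 (Mrc1) was called lower in P/Rbf tumors, and of the 8 adipocyte markers Lep was called higher in B1/P/Rbf and Fabp4 lower in P/Rbf tumors. Of the 5 skeletal muscle markers, 3 (Ckm, Acta1 and Myh4) were called lower in B1/P/Rbf and 4 in P/Rbf tumors. As a list they missed the threshold (exact permutation test, p = 0.627, adjusted 0.846, and p = 0.397, adjusted 0.67). Their sum in B1/P tumors had a median of 6.20 CPM and a highest value of 581 CPM, in tumor 248662. Acta1 read 177 CPM in that tumor and at most 2.69 CPM in the other B1/P tumors. The part of these cells in the results above was not tested.

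The genes whose log2 CPM ran most like that of each member over the 15 tumors, given as a description since the points share their genotype groups, libraries and scaling, included other junction genes. For Cldn4 the first was Cgn, which encodes the tight junction protein cingulin (Pearson r = 0.927), followed by Jcad and Nek8. For Cldn7 they were Tmem102 (r = 0.987), which lies 159 kb away on chromosome 11, Pkp2, a desmosome gene (r = 0.932), and Rasef. For Cdh1 they were Kcnk1, Qars and Ffar4 (r from 0.917 to 0.927), and for Ocln Grb7, Cxxc5 and Omp (0.895 to 0.921). For Cdh2 they were Hpse2, Etv5 and Tbx15 (0.930 to 0.941), and for Cldn1 Gm5535, Mical1 and Atp10d (0.903 to 0.911). For Cdh3 they were Cdk2ap1, Eif4h and Pigyl (0.869 to 0.893), and for Epcam Pyroxd2, Tbc1d30 and Nemf (0.901 to 0.922). For Cldn3 they were Rab4a, Cavin4 and Tmeff1 (0.852 to 0.914), and for Esrp1 Washc3, Mrpl54 and Cep290 (0.854 to 0.908). No member was among the 3 genes most like another member.

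Per kilobase of exon, so that genes can be compared, the order of the 10 genes differed between groups. In P/Rbf tumors Epcam stood first, with 460 ± 48.4 CPM per kb, ahead of Cdh1 (214 ± 80.6) and Cldn4 (212 ± 113), which did not differ beyond their spread. In B1/P/Rbf tumors Epcam (350 ± 100.5) and Cldn4 (332 ± 112) led, with Cdh1 next (239 ± 81.0), and these 3 overlapped. In B1/P tumors Epcam (221 ± 126) was followed by Cldn3 (106 ± 38.2), Cldn4 (76.5 ± 64.0) and Cdh1 (75.4 ± 18.3). The ranges of Epcam and Cdh1 did not overlap there, and those of Cldn3 and Cldn4 overlapped with both. Cdh2 and Cldn1 were the lowest of the 10 in every tumor group, at 4.76 ± 6.33 and 7.13 ± 6.87 CPM per kb in B1/P tumors, apart from Ocln (4.43 ± 2.38), which was lower than both there.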

How the data were processed

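RNA from 15 mammary tumors and 3 glands, 1 mouse each, was sequenced as stranded mRNA libraries. Reads were trimmed with Cutadapt 1.18 and counted with RSEM 1.3.0, and the authors deposited RSEM expected counts per gene, of which 5.61% were not whole. The study's methods name a human genome build, whereas all 55450 gene identifiers match mouse GENCODE M21 (GRCm38). Whether counting used strand was not given in the sources used here. Expected counts were rounded, filtered with filterByExpr (minimum count 10, 19186 genes) and TMM-scaled, and all 18 samples were fitted by group with edgeR 4.0.16's quasi-likelihood test (R 4.3.3). A gene was called at an adjusted p (Benjamini-Hochberg, over all genes tested) of 0.05 or less. Log2 CPM used a prior count of 2, and CPM per kb used summed exon length. For single values, exact permutation tests (two-sided) over samples were used (SciPy 1.17.1). Totals per library were 27661173 to 37794889. DESeq2 1.42.0, limma-voom 3.58.1, other filters and scalings, a term for mouse sets and leaving out each sample were alternatives. The test was checked on simulated counts. From each list of junction genes and regulators, the called genes with the largest rise and fall were named in each comparison of tumor groups (mean of at least 1 CPM), as were all members and 8 regulators chosen by name. Genes most like each member were the 3 with the highest Pearson r. The members and lists were chosen with earlier results of these data known.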

Additional observations from a re-analysis of the deposited data

Results flagged for a closer look

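In 5 of 30 groups of 5 tumors tested, 1 tumor lay apart from the other 4 by Dixon's test (gap over range of CPM above 0.71). Chance gives about 1 in 20 where values are normally distributed, and CPM values are skewed. On log2 CPM only 2 of the 5 passed, both of Cldn3, at 0.799 in B1/P/Rbf and 0.925 in P/Rbf, while the gap over range was 0.488 and 0.595 for Cdh2 in B1/P and P/Rbf and 0.309 for Cldn7 in B1/P. For Cdh2 in B1/P tumors, tumor 255232 had 129 CPM and the next 24.6 CPM. For Cdh2 in P/Rbf tumors, tumor 287842 had 5.46 CPM and the next 1.55 CPM. For Cldn3 in B1/P/Rbf tumors, tumor 210906 had 53.9 CPM and the next lowest 109 CPM. For Cldn3 in P/Rbf tumors, tumor 287845 had 41.3 CPM and the next lowest 158 CPM. For Cldn7 in B1/P tumors, tumor 225070 had 211 CPM and the next 54.0 CPM. Tumor 225070 had 0 CPM of Krt5 and the highest fibroblast and macrophage marker sums of its group (12870 and 1115 CPM), and tumor 287845 had the highest fibroblast marker sum of its group (4051 CPM). The part of such cells in these values was not tested.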

How the results depend on the processing

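Between tumor groups the number of the 10 genes called held within 1.5 times under every alternative except the study's filter (a log2 CPM of 6 or more in 6 or more samples), which tested 6 of the 10 and called 2 against B1/P in each comparison, 5 in B1/P/Rbf and 3 in B1/P tumors against gland. Against gland the term for mouse sets called 4 in B1/P/Rbf tumors. Leaving out 1 sample gave 5 to 7 called in B1/P/Rbf and 4 to 8 in P/Rbf against B1/P tumors, and 5 to 8, 4 to 8 and 3 to 7 against gland in P/Rbf, B1/P/Rbf and B1/P tumors. Cdh2 in B1/P tumors against gland was called in 8 of 14 alternatives, and not without tumor 255232 (1.43, edgeR adjusted p = 0.145), without any 1 gland (edgeR adjusted p from 0.0893 to 0.117), by limma-voom (limma adjusted p = 0.0809) or with only the 2 groups fitted (edgeR adjusted p = 0.0602).

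Signs turned in values that had not been called, and in called ones only on the scale of the epithelial genes: Cdh1 (-0.19) and Epcam (-0.42) in P/Rbf against B1/P tumors, and Cldn3 against gland in B1/P/Rbf (-0.064) and P/Rbf tumors (-0.19). The median of all genes on that scale was -1.25 in B1/P/Rbf and -1.71 in P/Rbf against B1/P tumors. Against gland it was -1.36 and -1.82, so these turns include a shift common to most genes. On that scale the sign also turned for Epcam (-0.44) and Esrp1 (-1.21) in B1/P/Rbf against B1/P, for Cldn3 (-1.63) and Esrp1 (-1.33) in P/Rbf against B1/P, for Cldn4 against gland in B1/P (-0.48) and P/Rbf tumors (-0.41), and in B1/P/Rbf against P/Rbf for Cdh3 (0.20), Cldn1 (0.59), Cldn3 (0.12), Cldn7 (0.35) and Esrp1 (0.13). Without Krt8 and Krt18 in that list (a setting chosen after seeing the data) it still turned for Epcam (-0.113) and Esrp1 (-0.879) in B1/P/Rbf and Cldn3 (-0.911) and Esrp1 (-0.619) in P/Rbf against B1/P. The term for mouse sets turned B1/P/Rbf against P/Rbf for Cdh2 (1.42), Cdh3 (1.08), Cldn1 (0.69), Cldn3 (0.22), Cldn4 (-0.41) and Esrp1 (0.067), Cldn3 in P/Rbf against B1/P (-0.26) and Cldn4 in B1/P against gland (-0.71). The other turns were of values near 0. Esrp1 in B1/P/Rbf against B1/P was -0.011 under the study's filter and -0.068, -0.041 and -0.056 without tumors 209490, 225070 and 246361 (leaving out 1 tumor, -0.068 to 0.122). Cldn3 in P/Rbf against B1/P was -0.035 under that filter, -0.047 by limma-voom and -0.123 and -0.009 without tumors 246361 and 290845 (-0.123 to 0.318). Cldn1 in B1/P/Rbf against P/Rbf was 0.002, 0.004 and 0.453 without tumors 208857, 208863 and 287845 (-0.493 to 0.453), Cldn7 0.02 by limma-voom and Ocln -0.04 without tumor 208863 (-0.04 to 0.40). Cldn4 in B1/P against gland was -0.014 with no filter, -0.271 under the study's filter, -0.435 by limma-voom, -0.006 by DESeq2, and -0.615, -0.013 and -0.127 without samples 225070, 330154 and 330156 (-0.615 to 0.262). Why these values turned was not tested.

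No paired analysis was possible because each mouse number stands in 1 group only. Counts of Cdh2 and Cldn1 in T121 tumors were low, at 0.306 to 9.18 CPM, and both genes also varied widely within B1/P tumors. Against B1/P tumors their log2 fold changes had standard errors of 0.78 to 0.87, larger than the 0.30 of Cdh1. Why they were less precise was not tested.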
